A study of Mus musculus with 144 samples.

Results

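The comparison described here is of whole blood taken 1 month after a single dose of 40 µg of multi-walled carbon nanotubes (MWCNT) with whole blood of mice that received the vehicle. The arrays were chosen by their label for treatment, dose and time after exposure, which gave 6 mice of the 40 µg group and 7 mice of the vehicle group of the 18 groups in the series. All animals were male C57BL/J6 mice, 7 weeks old when obtained and housed singly. Each mouse was anesthetized with isoflurane and aspirated a suspension placed at the base of the tongue. The vehicle, called dispersion medium (DM), was buffered saline with glucose, mouse serum albumin and the phospholipid DPPC, and it carried the MWCNT as well, so that the DM mice were treated animals and not untouched ones. The other groups of the series, used below only where the 40 µg group is set against them, received 1, 10 or 80 µg of MWCNT or 120 µg of crocidolite asbestos, with blood taken at 1, 6 or 12 months. Each of the 13 mice gave 1 array. The replicate numbers used here only name a mouse within its group, and no source used here says which mice shared a litter, a day of dosing or a day of bleeding. The question was which blood transcripts differed at 1 month after a dose that lies between the lowest and the highest that were given.

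MWCNT are stiff tubes of rolled graphene that stay in the lung long after they are breathed in, where macrophages take them up and where they are known for inflammation and scarring. Blood is outside that tissue, and its RNA comes from a mixture of cells: young red cells and platelets give much of it, and neutrophils, monocytes, B cells, T cells and natural killer (NK) cells give the rest. A transcript of one of these cell types can be lower in whole blood because there are fewer of the cells or because each holds less of it, and in bulk RNA these cannot be told apart.

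No probe set passed the test. Of the 23521 probe sets with 1 gene symbol, 0 (0%) had an adjusted p under 0.10 in limma with Benjamini-Hochberg adjustment, and the smallest adjusted p was 0.211. At an unadjusted p under 0.05 there were 2695, where 1176 would be expected if nothing differed. Of these, 1831 were lower in the 40 µg mice, or 7.78% of all probe sets, and 864 were higher, or 3.67%. Restricted to differences of at least 1.5-fold, 1274 were lower and 156 were higher. The median difference over all probe sets was 0.02 on the log2 scale. In 18 probe sets (0.0765%) every 40 µg mouse lay below every DM mouse, and in 38 (0.162%) every 40 µg mouse lay above.

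The direction of a difference went with the level of the signal. Probe sets lower at an unadjusted p under 0.05 had a median level of 3.83 on the log2 scale, and those higher had a median level of 1.19. Of the probe sets with a mean of 4 to 6, 25.3% were lower and 0.182% were higher, with a median difference of -0.33. Of those with a mean under 1.5, 0.601% were lower and 5.86% were higher. Probe sets for olfactory receptors, which blood is not expected to express, serve as a measure of the array's floor: 90% of them had a mean of 1.51 or less. Of 1088 olfactory receptor probe sets, 51 were higher in the 40 µg mice at an unadjusted p under 0.05 and 0 were lower. The brightest probe sets, with a mean above 8, had a median difference of 0.00, and 7.42% of them were lower.

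**Figure D1:**
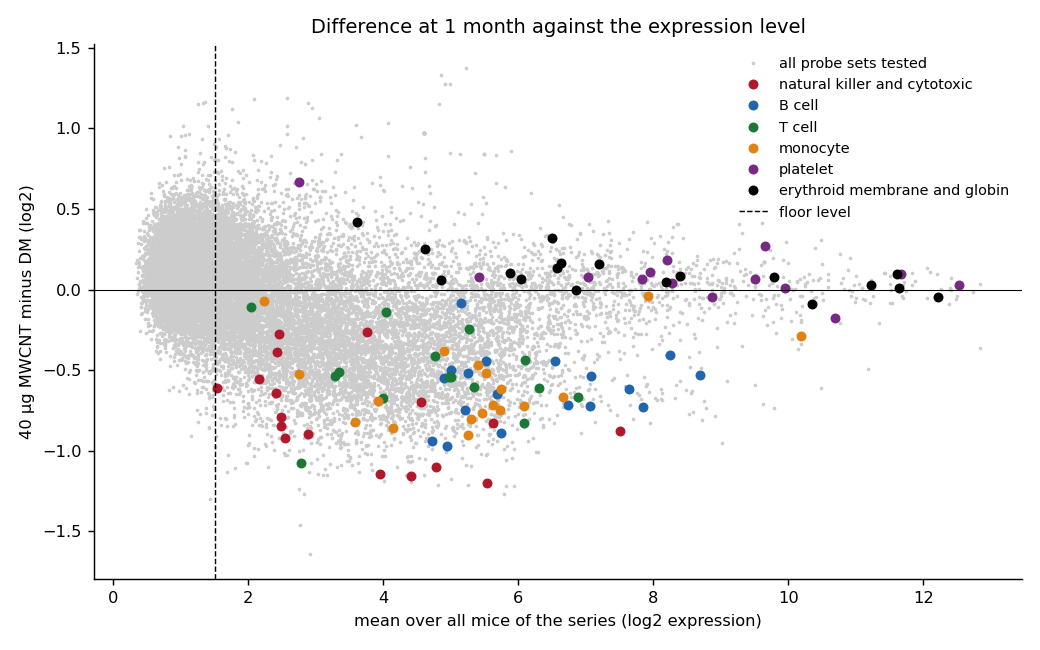
Log2 difference between the 40 µg MWCNT group (n = 6 mice) and the DM group (n = 7 mice) at 1 month, on the vertical axis, against the mean log2 expression over all mice of the series, on the horizontal axis, for the 23521 probe sets tested (grey) and the members of 6 gene lists (colors). The dashed line marks the floor level of 1.51. Members of the NK, B cell, T cell and monocyte lists lie below 0, and those of the erythroid and platelet lists lie near or above it.

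The 6 mice of the 40 µg group were uneven. The spread of an array is the interquartile range of its deviations from the probe set medians over all arrays. It was 0.707 for 40 µg replicate 3, 0.715 for 40 µg replicate 6 and 0.692 for DM replicate 6, and 0.457 to 0.632 for the other 10 mice. The median correlation of 40 µg replicate 3 with the other arrays was 0.844, the lowest of the 13, and 0.875 to 0.92 for the others. The spread was 0.591 ± 0.102 (SD, n = 6) in 40 µg mice and 0.58 ± 0.0654 (SD, n = 7) in DM mice (difference 0.01, exact two-sided permutation p = 0.804). Without 40 µg replicates 3 and 6, 640 probe sets had an unadjusted p under 0.05 in place of 2695, 311 of them lower and 329 higher, which is fewer than the 1176 expected. The spread is computed from the same values as the differences. Most leukocyte and pathway results below, and some of the leading genes that were lower, are also given without replicates 3 and 6. The part of array quality in the results was not tested beyond these values.

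Genes of NK and cytotoxic cells, which kill infected or altered cells by releasing granules, had the lowest median of the blood cell lists. All 17 measured members were lower in the 40 µg mice, 13 of them at an unadjusted p under 0.05. The median log2 difference was -0.83. Of all probe sets 7.78% were lower at that p. The share was 11.2% at a mean of 2 to 3, 21.5% at 3 to 4 and 25.3% at 4 to 6. The list's median level was 2.89, near the top of the first of these ranges, and Gzma and Prf1 were brighter. The level of Gzma, a granule protease, was 4.37 at the lowest, 5.55 at the median and 6.52 at the highest in the 40 µg mice, and 5.90, 6.75 and 8.0 in DM mice. The ranges overlapped, with 3 of the 40 µg mice below all DM mice. Gzma differed by -1.20 ± 0.36 (SE), with an adjusted p of 0.287 in limma. Prf1, the pore-forming protein perforin, had levels of 3.08, 4.36 and 5.26 (lowest, median and highest) in the 40 µg mice and of 4.65, 5.53 and 5.98 in DM mice. It differed by -1.14 ± 0.33 (SE), and all but 1 of the 40 µg mice lay below the lowest DM mouse. Klre1, an NK cell receptor chain, differed by -0.79, and Nkg7, a protein of cytotoxic granules, by -0.83. Without 40 µg replicates 3 and 6, the median of the list was -0.53 and 5 of 17 members were lower at an unadjusted p under 0.05. Gzma then differed by -0.76 and Prf1 by -0.92. With DM replicate 6, also of wide spread, left out as well, the list median was -0.40 with 4 of 17 members lower. The mean of the list ranged from 3.24 to 4.33 in the 40 µg mice and from 3.87 to 5.08 in DM mice, and 4 of the 6 lay below every DM mouse.

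B cell genes were also lower in the 40 µg mice. All 18 measured members were lower and 11 of them had an unadjusted p under 0.05, with a median of -0.58. The median levels of the B cell, T cell and monocyte lists were 4.98 to 5.71. Of all probe sets with a mean of 4 to 6, 25.3% were lower, with a median difference of -0.33. Fcrla, a B cell protein related to Fc receptors, had levels of 3.35, 5.40 and 5.90 in the 40 µg mice and of 5.66, 6.09 and 6.50 in DM mice. Its difference was -0.89 ± 0.30 (SE, adjusted p = 0.30 in limma). The lowest value was that of replicate 6, with the next mouse at 5.05, and 4 of the 6 lay below all DM mice. Bank1, an adaptor of the B cell receptor, differed by -0.73, Fcer2a, the low-affinity IgE receptor CD23, by -0.72, and Spib, a transcription factor of B cells, by -0.94. The mean of the list was 4.71 in replicate 6 and 5.79 to 6.77 in the other 40 µg mice, against 6.23 to 7.10 in DM mice. Without replicate 6 the median of the list was -0.35 and 0 of 18 members were lower at an unadjusted p under 0.05. With replicate 3 left out as well it was -0.16. Ighm, the heavy chain of IgM, differed by -0.73 and all 7 of its probe sets were lower.

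The T cell list gave a like direction. All 15 measured members were lower, 7 of them at an unadjusted p under 0.05, and the median was -0.54. The lowest unadjusted p of the list was that of Bcl11b, a transcription factor that T cells need to keep their identity. Its levels were 2.09, 2.45 and 4.32 in the 40 µg mice and 3.40, 3.78 and 4.91 in DM mice, a difference of -1.07 ± 0.29 (SE, adjusted p = 0.278 in limma). Of the 6 mice, 4 lay below all DM mice and 2 lay among them. Cd3e and Cd3g, chains of the T cell receptor complex, differed by -0.66 and -0.61, and Il7r, the receptor for a survival cytokine of T cells, by -0.83. Without replicates 3 and 6 the median was -0.24, with 1 of 15 members at an unadjusted p under 0.05. With DM replicate 6 left out as well it was -0.17, with 0 of 15.

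The Gimap genes encode GTPases that keep lymphocytes alive and lie side by side in the genome. All 8 were lower and 4 had an unadjusted p under 0.05, with a median of -0.67. The list's median level of 4.68 lay in the same range of 4 to 6, where 25.3% of all probe sets were lower. Gimap3 had levels of 2.88, 5.62 and 6.60 in the 40 µg mice against 6.23, 6.61 and 6.90 in DM mice, and its difference of -1.22 ± 0.30 (SE, adjusted p = 0.254 in limma) was the largest of the 8. In 2 of the 40 µg mice Gimap3 lay within the DM range. Gimap4 differed by -0.74, Gimap7 by -0.83 and Gimap8 by -0.75. The Gimap3 difference without replicates 3 and 6 was -0.52, and 0 of the 8 genes had an unadjusted p under 0.05.

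In the lists of myeloid cells, all 18 monocyte genes were lower, 6 at an unadjusted p under 0.05, with a median of -0.68. The chemokine receptor Ccr2, which lets monocytes leave the bone marrow, had levels of 3.15, 5.04 and 5.57 in the 40 µg mice and of 5.08, 5.47 and 6.16 in DM mice. It differed by -0.81 ± 0.29 (SE, adjusted p = 0.312 in limma), and 3 of the 6 lay below all DM mice. Fcgr1, a receptor for IgG, differed by -0.82, Nr4a1, a nuclear receptor of patrolling monocytes, by -0.90, and Ly6c2, a surface marker of classical monocytes, by -0.66. Without replicate 6, the median was -0.38 and 0 of 18 members had an unadjusted p under 0.05. With replicate 3 left out as well it was -0.22. Of 23 neutrophil genes, 2 were lower at an unadjusted p under 0.05. That share is close to the 7.78% of all probe sets but below the 21.5% of those with a mean of 3 to 4. The list's median level was 3.31, and its median difference was -0.18. The median difference ran from -0.39 without 40 µg replicate 4 to -0.06 without DM replicate 4. It was -0.03 with 0 members lower without 40 µg replicates 3 and 6. The 2 genes were Mmp9, a gelatinase of neutrophil granules, with a difference of -0.82, and the decoy receptor Il1r2, with -0.77. The same 2 mice had the lowest means of the neutrophil list among the 40 µg mice, 3.36 for replicate 6 and 3.88 for replicate 3.

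Transcripts of red cells and platelets had medians slightly above 0. Of 18 genes of the red cell membrane and globin list, 0 had an unadjusted p under 0.05 in either direction, and the median difference was 0.08. Tfrc, the transferrin receptor of young red cells, differed by 0.32 ± 0.27 (SE), and Trim58, which acts in the shedding of the nucleus, by 0.42 ± 0.32 (SE). Of 14 platelet genes, 0 were lower and 1 was higher at an unadjusted p under 0.05, with a median of 0.07. The gene that was higher was F2rl3, the thrombin receptor PAR4, with levels of 2.52, 3.05 and 4.10 in the 40 µg mice and of 1.91, 2.36 and 3.27 in DM mice. It differed by 0.67 ± 0.29 (SE, adjusted p = 0.369 in limma), and the groups overlapped. The platelet chemokine Pf4 differed by 0.27 ± 0.19 (SE). Replicate 6, which had the lowest means of the leukocyte lists, had the highest mean of the erythroid list (8.54) and of the platelet list (9.04) among the 13 mice.

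**Figure D2:**
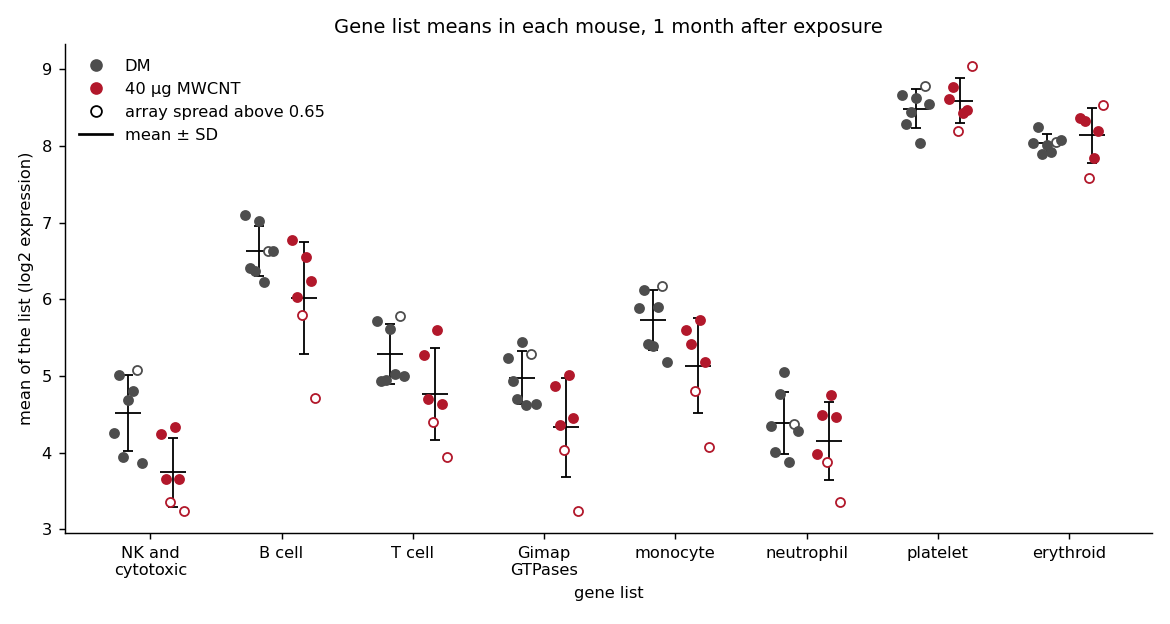
Mean log2 expression of the members of 8 gene lists in each DM mouse (grey, n = 7) and each 40 µg MWCNT mouse (red, n = 6) at 1 month, with the mean and SD of each group. Open circles are the 3 arrays with a spread above 0.65, namely 40 µg replicates 3 and 6 and DM replicate 6. The 2 open 40 µg circles are the lowest of the group in the leukocyte lists, and the groups overlap in every list.

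The genes of smallest unadjusted p that were lower in the 40 µg mice included Gimap3, given above, and others that no cell type list held. Cep97, a centriole protein that holds back the growth of cilia, had the smallest p. Its levels were 1.49, 2.01 and 2.60 in the 40 µg mice and 2.34, 2.92 and 3.78 in DM mice. The difference was -0.96 ± 0.22 (SE), with an adjusted p of 0.211 in limma, and 4 of the 6 lay below all DM mice. Neil1, a DNA glycosylase that removes oxidized bases, had levels of 1.71, 2.34 and 2.94 against 3.07, 3.67 and 4.16 in DM mice, so that every 40 µg mouse lay below every DM mouse. Its difference was -1.24 ± 0.29 (SE, adjusted p = 0.211 in limma). Rint1, which acts in transport between the Golgi apparatus and the endoplasmic reticulum, differed by -0.99 and Rnft1, a RING finger protein, by -1.03. In Rnft1 too the groups did not overlap, with 2.43 to 3.84 in the 40 µg mice and 3.91 to 4.62 in DM mice. The differences were -0.90 for Txlna, a syntaxin-binding protein, -0.75 for Pnisr, -1.09 for Trp53bp2, a partner of p53, and -1.46 for the zinc finger gene Zfp942. Il2ra, the high-affinity chain of the interleukin-2 receptor, differed by -1.03. Without replicates 3 and 6, Cep97 differed by -0.75, Neil1 by -1.05, Rint1 by -0.92 and Rnft1 by -0.82, and all 4 had an adjusted p of 1.00.

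The genes that were higher were dim. Gje1, a gap junction protein known from the eye lens, had levels of 1.44, 1.94 and 2.25 in the 40 µg mice and of 0.94, 1.13 and 1.19 in DM mice. The groups did not overlap, and the difference was 0.81 ± 0.19 (SE, adjusted p = 0.211 in limma). The 7 DM mice lay below the floor level of 1.51. Gprin1, a protein of nerve cell growth cones, differed by 0.91, and its levels of 1.35 to 3.25 in the 40 µg mice did not overlap those of 0.87 to 1.31 in DM mice. Bglap, the bone protein osteocalcin, differed by 1.01 and Farp1 by 0.61, again without overlap. The differences were 1.15 for Xlr3c, 0.71 for Them5, 0.63 for Shisa3, 0.80 for Ppp1r16a, 0.61 for Cdc42ep4 and 0.89 for Pramel5. None of the 10 had a mean above 2.29 in the 40 µg mice, and their adjusted p values ran from 0.211 to 0.30 in limma.

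**Figure D3:**
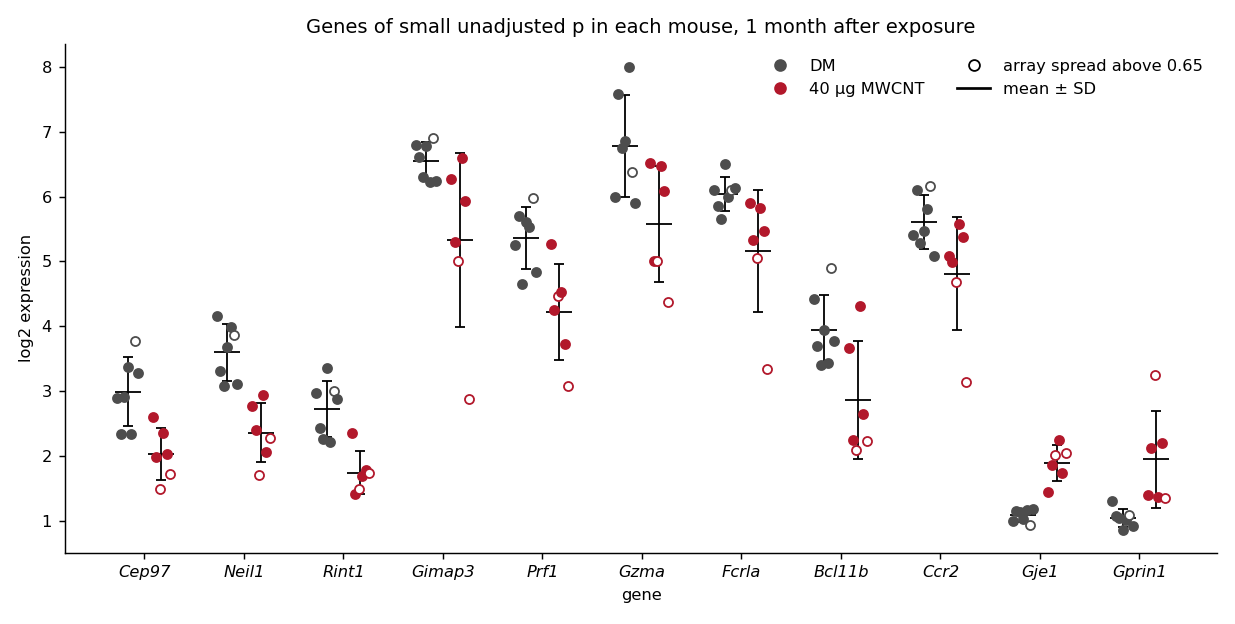
Log2 expression of 11 genes named in the text in each DM mouse (grey, n = 7) and each 40 µg MWCNT mouse (red, n = 6), with the mean and SD of each group. Open circles are the arrays with a spread above 0.65. Neil1 and the dim genes Gje1 and Gprin1 show no overlap between the groups, whereas Gimap3, Fcrla and Ccr2 overlap and have 1 mouse, 40 µg replicate 6, far below the others.

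Genes that leukocytes use for signaling and movement were lower in part. Of 16 NF-kappaB genes, which control the transcription of inflammatory and survival genes, 8 were lower at an unadjusted p under 0.05 and the median was -0.51. Ikbkb, the kinase that releases NF-kappaB, differed by -1.10 ± 0.32 (SE), with levels of 2.23, 5.17 and 5.95 in the 40 µg mice against 5.32, 5.93 and 6.62 in DM mice. In 3 of the 40 µg mice Ikbkb lay within the DM range and in 3 below it, with replicate 6 the lowest. Bcl3 differed by -1.03, Nfkbie by -0.99 and Rel by -0.77. Of 17 genes of lymphocyte homing and egress, 9 were lower at an unadjusted p under 0.05 (median -0.58), with Itga4 at -0.62, the selectin ligand Selplg at -0.72, Icam1 at -0.76 and the B cell chemokine receptor Cxcr5 at -0.75. Of 23 immediate-early genes, which are switched on within minutes of a stimulus, 7 were lower (median -0.41), among them Btg2 at -0.77, Zfp36 at -0.69, Dusp1 at -0.80 and Fos at -0.62. Without replicates 3 and 6, the medians were -0.22 for NF-kappaB, -0.26 for homing and -0.27 for immediate-early genes, each with 0 members at an unadjusted p under 0.05. The median levels of these lists were 3.98, 5.39 and 2.99. With all mice kept, 21.5%, 25.3% and 11.2% of all probe sets in those ranges of level were lower.

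Further lists hold genes of antigen presentation and of innate sensing. Of 18 antigen presentation genes 6 were lower at an unadjusted p under 0.05, all 18 had a lower mean, and the median was -0.47. The list's median level was 5.63, and 25.3% of all probe sets with a mean of 4 to 6 were lower. Psmb9, a subunit of the immunoproteasome that cuts peptides for MHC class I, had levels of 3.35, 3.83 and 4.26 in the 40 µg mice and of 4.27, 4.43 and 4.73 in DM mice. These ranges did not overlap, and the difference was -0.65 ± 0.26 (SE, adjusted p = 0.349 in limma). The MHC gene H2-K1 differed by -0.78, H2-Aa by -0.62 and the peptide transporter Tap1 by -0.85. Leaving out replicate 6 gave a median of -0.25 with 2 of 18 members lower, and leaving out replicates 3 and 6 gave -0.21 with 0 of 18. Of 24 genes of the acute phase and of pattern recognition, 4 were lower (median -0.21), namely Tlr7 at -1.08, Tlr1 at -0.56, the beta-glucan receptor Clec7a at -0.68 and haptoglobin, Hp, at -0.67. The median level of this list was 2.36, and 11.2% of all probe sets with a mean of 2 to 3 were lower. Leaving out replicates 3 and 6 gave a median of -0.15 with 1 of 24 lower, and leaving out replicate 5 alone gave -0.05 with 4 lower.

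Lists of inflammation and of stress are read against the 7.78% of all probe sets that were lower. That share depends on the level, with 21.5% at a mean of 3 to 4 and 25.3% at 4 to 6. Probe sets at those levels had median differences of -0.31 and -0.33. The median level was 3.63 for the chaperone list and 4.15 for the interferon list, so 7.78% is a low yardstick for these lists. Of 26 inflammatory cytokines, chemokines and members of the IL-1 pathway, 2 were lower at an unadjusted p under 0.05, a share near that of all probe sets, and the median was -0.12. They were Myd88, the adaptor of Toll-like and IL-1 receptors, with a difference of -0.66, and the chemokine Ccl3, also with -0.66. Of 24 interferon response genes 4 were lower (median -0.27), with the sensor Zbp1 at -0.72 and the antiviral enzyme Oas2 at -0.85. Of 25 genes of p53 and DNA damage 5 were lower (median -0.27), with the kinase Atm at -0.98, Chek2 at -0.62 and the death receptor Fas at -0.59. Of 22 chaperones and genes of the unfolded protein response, 6 were lower and 1 was higher (median -0.27), with Hspa8 at -0.63 and Hsp90b1 at -0.67. The higher one, Asns (0.52), was named after its value was seen. Hspa8 has 4 probe sets, with differences of -0.63 to -0.09. Of 23 genes of oxidative stress, 1, Park7, was lower (-0.41) and the median was -0.06, and of 35 proliferation genes 3 were lower and 1 was higher (median 0.02). The higher one was Tyms, thymidylate synthase, with a difference of 0.62, and the lower ones were Rrm1 (-0.63), Mcm6 (-0.52) and Mcm4 (-0.45), which act in nucleotide supply and DNA replication. With replicates 3 and 6 left out, 0 members were lower in the interferon, p53, chaperone, oxidative stress and proliferation lists and 1 in the inflammation list. The medians were then -0.12 for interferon, -0.17 for p53, -0.14 for chaperones and -0.04 for inflammation.

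The remaining lists hold rarer cell types and regulatory programs. Of 10 genes of antibody-secreting cells 2 were lower, Ighm and Xbp1 (-0.61), with a median of 0.01. Of 11 dendritic cell genes 1, Xcr1, was higher (0.44, list median -0.21), and of 16 genes of eosinophils, basophils and mast cells 1, the histamine-forming enzyme Hdc, was lower (-0.61, list median -0.12). Of 18 complement and coagulation genes 3 were lower, among them the complement receptor Cr2 (-0.97), which B cells carry, and the list median was -0.01. Of 18 glucocorticoid-responsive genes 4 were lower and 1, the metallothionein Mt2, was higher (median -0.18), and of 17 clock genes 1, Arntl, was lower (-0.50, list median -0.27). Of 10 heme synthesis genes and 26 histone genes, 0 had an unadjusted p under 0.05, with medians of 0.00 and 0.15. The 7.78% of all probe sets that were lower, and its dependence on the level, apply to these counts too. With replicates 3 and 6 left out there were 0 lower members among the antibody-secreting, mast cell and glucocorticoid genes. There was 1 each among the complement and clock genes.

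Genes that every cell uses were examined in 4 lists. The 65 cytosolic ribosomal protein genes had a median of -0.07, with 1 lower and 1 higher at an unadjusted p under 0.05. The higher one was Rpl26 (0.96), at a dim signal of 2.41 in the 40 µg mice. Rpl4 differed by -0.37, and its other probe set by 0.10. Of 70 nuclear genes of the respiratory chain 4 were lower (median -0.08), among them Uqcrc1 at -0.67 and Ndufv3 at -0.50. Of 38 proteasome genes 5 were lower and 31 had a lower mean (median -0.20), with Psmd7 at -0.75 and Psmc4 at -0.73, and of 10 genes of the mitochondrial genome 0 had an unadjusted p under 0.05 (median -0.00). The median levels of the ribosomal, respiratory chain and proteasome lists were 5.78, 4.14 and 4.25. Of all probe sets with a mean of 4 to 6, 25.3% were lower, a larger share than in any of these lists. With replicates 3 and 6 left out, the medians were 0.02 for ribosomal, 0.02 for respiratory chain and -0.05 for proteasome genes, with 1, 1 and 0 members lower.

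Markers of lung were mostly at the floor in blood, and those of scarring in part. Of 16 lung epithelium genes 12 had a mean at or below the floor level, the median difference was 0.10, and 2 were higher at an unadjusted p under 0.05. The median levels of this list and of the skin list below were 1.2 and 1.37. Of all probe sets with a mean under 1.5, 5.86% were higher. Sftpc, surfactant protein C, had levels of 1.05, 1.32 and 1.68 in the 40 µg mice and of 0.57, 0.78 and 1.03 in DM mice. The groups did not overlap, and the difference was 0.56 ± 0.19 (SE, adjusted p = 0.30 in limma), but every DM value and both medians lay under the floor level of 1.51. Sftpd, surfactant protein D, differed by 0.49 with all 13 mice and by 0.01 without replicates 3 and 6. Of 33 markers of fibrosis and asbestos disease, 15 were at the floor, 2 were lower and 1 was higher (median 0.09). The lower ones were Mmp9, which is also a neutrophil gene, and Tgfbr2 (-0.74), a TGF-beta receptor, and the higher one was Lox (0.33), a collagen cross-linking enzyme. The median level of the fibrosis list was 1.69. Of all probe sets with a mean of 1.5 to 2, 3% were lower and 4.25% were higher. With replicates 3 and 6 left out, the medians were -0.01 for the lung and -0.03 for the fibrosis list. Among 13 skin genes 8 were at the floor and 1, Krt14, was higher (0.62), and of 12 muscle genes and 12 endothelial genes 0 had an unadjusted p under 0.05. The medians were 0.14 for skin, 0.12 for muscle and -0.13 for endothelium. The part of such cells in the leukocyte results was not tested.

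The study named 8 genes from blood at 1 month, a list chosen on these samples and so not independent evidence of its direction. In the 40 µg mice 1 of the 8 was lower and 1 was higher at an unadjusted p under 0.05. Slc22a5, the carnitine transporter, had levels of 0.81, 1.14 and 2.21 in the 40 µg mice and of 1.79, 2.27 and 2.83 in DM mice, a difference of -0.91 ± 0.29 (SE, adjusted p = 0.30 in limma). Of the 6 mice, 4 lay below every DM mouse and 2 lay among them. The median of the 40 µg mice lay under the floor level of 1.51. Rimklb, a glutamate ligase, differed by 0.44 ± 0.21 (SE). The study lists Rimklb as downregulated in blood at 1 month, as it does Slc22a5, Slc7a1 and Per1. Slc7a1, a transporter of cationic amino acids, differed by -0.54 ± 0.32 (SE), and the clock gene Per1 by -0.45 ± 0.29 (SE). The other 4, Cftr, Sh3rf3, Tuba1b and Hsd17b2, differed by -0.07 to -0.03. The study lists Cftr and Sh3rf3 as downregulated, and Tuba1b and Hsd17b2 as upregulated. Its main tables give no dose for any of the 8. Of the 8 genes, 3 had a mean at or below the floor level, so a small difference there does not show unchanged expression. Without replicates 3 and 6, Slc22a5 differed by -0.72 and Slc7a1 by -0.30.

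With all mice kept, the 40 µg group was the lowest at 1 month in the NK, B cell, T cell and monocyte lists. The dose did not order the 6 groups. The mean of the NK list was 3.74 ± 0.45 (SD, n = 6) at 40 µg, 3.81 ± 0.306 (SD, n = 6) at 10 µg, 3.91 ± 0.37 (SD, n = 8) at 1 µg and 4.15 ± 0.436 (SD, n = 8) at 80 µg, against 4.52 ± 0.498 (SD, n = 7) in DM mice. The 40 and 10 µg groups and the 10 and 1 µg groups differed by less than their SDs. For the B cell list the means were 6.02 ± 0.731 (SD, n = 6) at 40 µg and 6.37 to 6.63 in the other 5 groups. For the monocyte list they were 5.13 ± 0.618 (SD, n = 6) at 40 µg, 5.25 at 10 µg and 5.29 at 1 µg, and 5.72 to 5.76 in the DM, crocidolite and 80 µg groups. The DM group of 1 month had the highest mean of all 18 groups in the NK, B cell, T cell and neutrophil lists. Against those DM mice, which all the comparisons at 1 month share, the median of the NK list was -0.65 at 1 µg, -0.71 at 10 µg, -0.83 at 40 µg, -0.39 at 80 µg and -0.51 with crocidolite. The median of the B cell list was -0.27, -0.14, -0.58, 0.02 and -0.15 in the same order. Without 40 µg replicates 3 and 6, the medians at 40 µg were -0.53 for NK and -0.16 for B cell genes. Those of the T cell and monocyte lists were -0.24 and -0.22, against -0.305 and -0.46 at 1 µg. By these medians the 40 µg group was then not the lowest in any of these lists. Mice were left out of the 40 µg group only, and the other groups kept all of theirs, DM replicate 6 included.

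**Figure D4:**
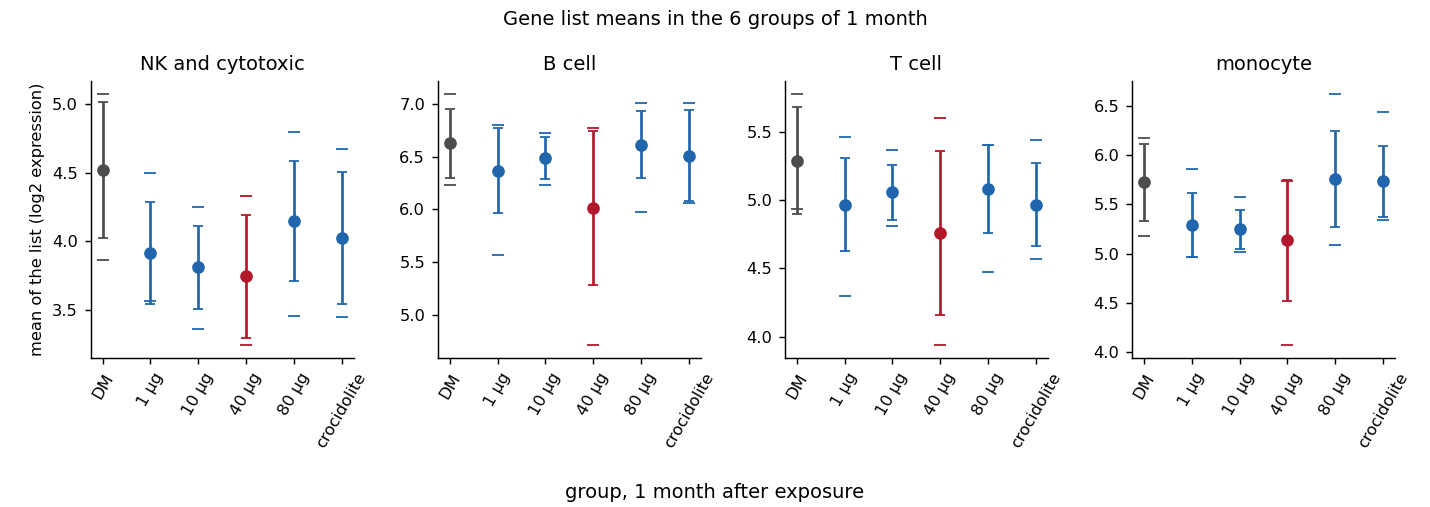
Mean log2 expression of 4 gene lists in the 6 groups of 1 month. Points and bars are the mean and SD over 6 to 8 mice and short dashes the lowest and highest mouse, with DM in grey, 40 µg MWCNT in red and the other groups in blue. With all its mice kept, the 40 µg group has the lowest mean in each panel. Its SD is wide in the B cell, T cell and monocyte lists.

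Direct comparisons with the neighboring doses use no DM mouse. They keep 40 µg replicates 3 and 6, and the lists were not examined in them without both mice. Against 80 µg, 0 of 23521 probe sets had an adjusted p under 0.10 in limma, and 2249 had an unadjusted p under 0.05, 1517 of them lower at 40 µg. The smallest adjusted p, 0.124, was that of Lrrc8d, a subunit of the volume-regulated anion channel. Its levels were 1.34, 1.67 and 1.87 at 40 µg and 1.87, 2.36 and 2.67 at 80 µg, a difference of -0.73 ± 0.15 (SE), and the 2 groups did not overlap. The other probe set of Lrrc8d differed by -0.11. Tbl1x differed by -1.16, Rnf2, a Polycomb ubiquitin ligase, by -1.09, the lipid droplet protein Plin2 by -1.0 and Vps11 by -1.09. The medians of the lists were -0.69 for monocytes, -0.61 for B cells, -0.41 for NK cells and -0.32 for T cells, with 6 of 18, 12 of 18, 3 of 17 and 2 of 15 members lower at an unadjusted p under 0.05. Beside these counts stand the 1517 of all 23521 probe sets that were lower. The share lower by level of signal was not examined in this comparison.

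Against 10 µg, 0 probe sets had an adjusted p under 0.10 in limma and 1106 had an unadjusted p under 0.05, below the 1176 expected. The genes of smallest p included Exosc8, a subunit of the RNA exosome, with a difference of -1.25, Zfp148 with -0.77 and Rnf2 with -1.03, each with an adjusted p of 0.992. The median of the B cell list was -0.51 and 4 of 18 members were lower at an unadjusted p under 0.05. For the NK list it was -0.08, with 0 of 17. No member of either list passed the adjusted threshold.

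The same dose at later times was compared with the DM mice of each month. At 6 months, 661 probe sets had an unadjusted p under 0.05 and 0 had an adjusted p under 0.10, and the medians were 0.04 for NK, 0.06 for B cell, 0.00 for T cell and 0.37 for monocyte genes. At 12 months, 10 probe sets had an adjusted p under 0.10 in limma and 2566 an unadjusted p under 0.05, with medians of -0.33, -0.69, -0.64 and -0.16 in the same order. The effect of 40 µg was tested for a difference between months in an interaction contrast. Between 1 and 12 months 0 probe sets passed, and 912 had an unadjusted p under 0.05. Between 1 and 6 months 0 passed and 2091 had an unadjusted p under 0.05, where the smallest adjusted p was 0.474. Among the latter, Zbtb16, a transcription factor of innate-like T cells, had a mean of 2.09 ± 0.345 (SD, n = 6) at 40 µg and 2.60 ± 0.721 (SD, n = 7) in DM mice at 1 month. At 6 months it had 2.66 ± 0.445 (SD, n = 8) and 1.79 ± 0.292 (SD, n = 8), and its effects differed by -1.38 ± 0.36 (SE). Lpin1, a phosphatidate phosphatase, gave -1.12, Zfp866 gave -1.41 and Stard3 gave -0.96. Between 1 and 12 months, Ifi207, an interferon-induced gene, gave -1.47 with an adjusted p of 1.00.

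The result depended on which mice were included. Leaving out 40 µg replicate 4, which had the highest NK, T cell and monocyte means of its group, gave 90 lower and 28 higher probe sets with an adjusted p under 0.10, or 0.502% of all. Leaving out 40 µg replicate 1 gave 28 lower and 13 higher, and leaving out DM replicate 5 gave 2, both lower. Leaving out any other single mouse gave 0. Without replicate 6 the median of the B cell list was -0.35 and without replicate 1 it was -0.73. The median of the NK list ran from -0.99 without replicate 4 to -0.68 without replicate 6. Within the arrays numbered 96 or lower, which hold 5 mice of each group, the means of the lists differed by -0.70 for NK, -0.35 for B cell, -0.33 for T cell and -0.39 for monocyte genes. Above 96 there were 1 mouse at 40 µg, replicate 6, and 2 DM mice, with differences of -1.23, -1.92, -1.45 and -1.61. A second quantile normalization of the values left 956 probe sets lower and 571 higher at an unadjusted p under 0.05, with medians of -0.64 for NK, -0.45 for B cell, -0.29 for T cell and -0.47 for monocyte genes.

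**Figure D5:**
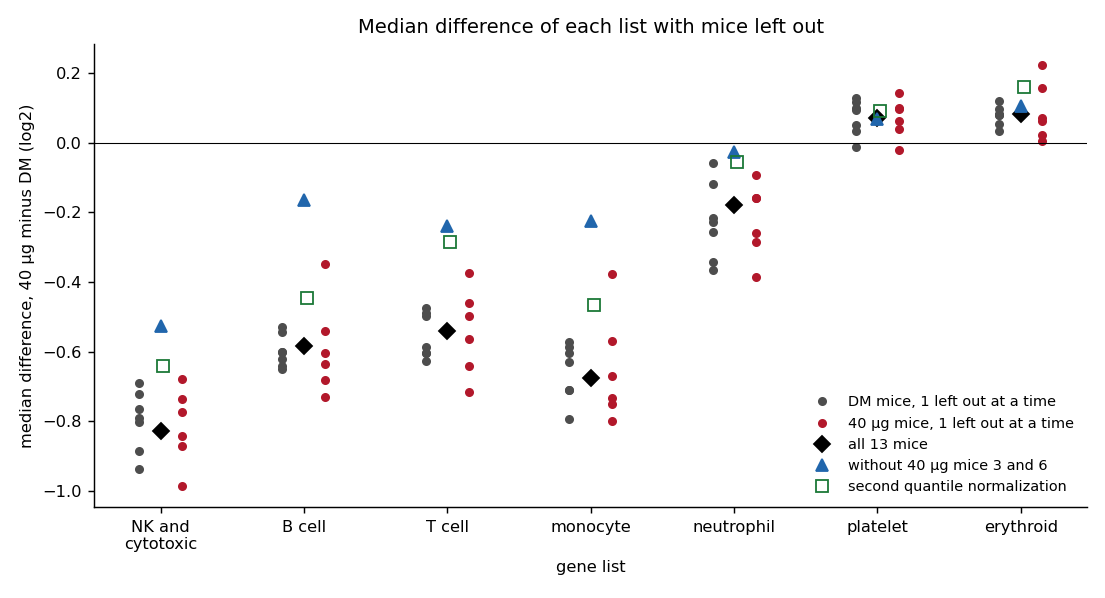
Median log2 difference between the 40 µg MWCNT and DM groups at 1 month over the members of 7 gene lists, with all 13 mice (diamonds), with 1 DM mouse (grey) or 1 40 µg mouse (red) left out at a time, without 40 µg replicates 3 and 6 (triangles) and after a second quantile normalization (squares). The 4 lists of NK, B, T and monocyte genes stay below 0 in all of these, and their triangles lie between -0.53 and -0.16.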

How the data were processed

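Labelled cDNA from whole blood RNA was hybridized by the authors to Affymetrix Mouse Gene ST 2.1 plates, and the deposited values are log2 expression values that the authors computed by RMA in oligo. Versions of the authors' tools are not given in the sources used here. The table holds 41345 probe sets. Arrays were grouped by label, and arrays of 1 mouse were averaged. Of the probe sets, 23521 carried a single gene symbol (22180 genes), against 1820 with more and 16004 without. Gene IDs were looked up in a RefSeq gene table to bring symbols up to date, and 23328 were found and 193 were not.

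The 18 group means were fitted together in limma 3.58.1 (R 4.3.3, lmFit and eBayes), without covariates and with dim probe sets kept, after the fit was tested on simulated data. Adjusted p values are Benjamini-Hochberg within a comparison, called under 0.10. Array spreads were compared by an exact permutation test (1716 permutations). For arrays, their number limits the precision, and p-values measure the spread between mice. The text names the 10 genes of smallest p in each direction above the floor level, passing over unnamed and receptor genes, up to 4 members of each of 38 lists by smallest p, the study's genes and the leading genes of the other contrasts. A gene with several probe sets is given by its brightest in lists. The comparison, lists and tests were chosen with earlier results of these data known. Alternatives were other sets of groups, filters, normalizations, weights, covariates and tests, and mice left out. The 2 settings without arrays of wide spread were chosen after seeing the data.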

Additional observations from a re-analysis of the deposited data

Results flagged for a closer look

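Of 222 combinations of gene and group checked for a mouse far from the others, 11 stood out by Dixon's ratio, the gap to the nearest mouse over the range of the group. Chance flags about 1 in 20 groups, so 11 of 222 is about the count that chance alone gives. In the 40 µg group, replicate 6 was the lowest mouse in 7 of the 11. These 7 share the same mouse and are not independent of each other. The ratios were 0.667 for the B cell gene Fcrla, 0.631 for Ccr2 and 0.705 for Ly6c2 of monocytes, 0.649 for Ikbkb, 0.685 for Tlr1, 0.785 for Clec7a and 0.754 for Uqcrc1. For Clec7a this mouse had 4.62 and the next had 5.88. Replicate 2 of the 40 µg group was the highest in Ermap, a red cell membrane protein, with a ratio of 0.705.

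In the DM group, replicate 6 was the highest in Csf3r, the receptor for the neutrophil growth factor G-CSF (0.576), replicate 7 the lowest in Btg2 (0.659) and replicate 5 the lowest in Krt14 (0.623), which lay at 0.72 on the log2 scale, under the floor level.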

How the results depend on the processing

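The count of 0 probe sets with an adjusted p under 0.10 held in fits of only the 2 groups or only the 6 groups of 1 month, without dim probe sets, with a second quantile normalization, with the array number or the array spread as a term, without arrays of low correlation, in the methods' analysis of variance, with an intensity trend, with the first array of repeated mice only, and without the arrays of wide spread. Array weights gave 5 (0.0213%), and a test of all 41345 probe sets gave 1 (0.00242%). Leaving out 1 mouse gave 0% to 0.502% of the probe sets, with values above 0 without 40 µg replicate 1, 40 µg replicate 4 and DM replicate 5. Against 80 µg, the count was 1 (0.00831%) without dim probe sets and 2 (0.0085%) with the array number as a term, and 0 in the other alternatives. Against 10 µg and between months it was 0 in every alternative run. The difference in array spread was -0.0118 without arrays of low correlation.

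Without the wide arrays of both groups, 520 probe sets had an unadjusted p under 0.05. The list medians were then -0.40 for NK, -0.18 for B cell, -0.17 for T cell and -0.165 for monocyte genes. The sign turned in 5 genes, of which Sh3rf3, Tuba1b, Hsd17b2 and Cftr differed by under 0.1 and Sftpd by 0.49 with all mice. Sh3rf3 gave 0.063 without the wide arrays of both groups and -0.19 to 0.059 with 1 mouse left out. Tuba1b gave 0.061 after the second quantile normalization and -0.28 to 0.17 with 1 mouse left out. Hsd17b2 gave 0.058 with array weights, 0.013 without arrays of low correlation and -0.13 to 0.10 with 1 mouse left out. Cftr gave -0.077 to 0.036 with 1 mouse left out, and Sftpd -0.026 without the wide arrays of both groups. The cause was not tested. No paired analysis was possible because the labels give no replicate numbers that the groups share.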
